A study of Homo sapiens with 27 samples.

Results

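The comparison described here sets ARNT-knockout clone B against ARNT-knockout clone A of Panc1, both kept for 48 hours at 1% O2 in TIFM, and takes in all measured genes. It uses 6 of the 27 libraries of the study, 3 of clone B and 3 of clone A, chosen by their labelled genotype, oxygen level and medium. Panc1 is an established human pancreatic ductal adenocarcinoma line. Both clones carry a CRISPR-Cas9 knockout of ARNT, so the contrast holds the targeted gene, the low oxygen and the medium constant. It asks how 2 separately derived knockout lines differ. Whether the 2 clones carry the same edit was not tested. Each line is a single clone, so what the edit did and what its founder cell already carried cannot be told apart. Further libraries, 3 per group, are used beside it. They are the same clones at 1% O2 in regular medium (DMEM with 10% FBS), the same clones in normoxia (20% O2) in regular medium, and parental Panc1 cells at 1% O2 in TIFM.

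ARNT, also called HIF1B, is the partner subunit that HIF1A and EPAS1 need to bind DNA when oxygen is low, and that the aryl hydrocarbon receptor AHR needs to switch on CYP1 genes. TIFM, Tumor Interstitial Fluid Medium, copies the nutrient levels of the fluid around pancreatic tumor cells. Cells short of amino acids phosphorylate the initiation factor eIF2, which slows general translation and favors that of ATF4, a transcription factor that raises amino acid transporters, asparagine synthetase and serine synthesis enzymes.

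The 6 libraries held between 26057022 and 33578374 counts, and 12624 genes passed the low-count filter. Whether replicates came from separate cultures is not stated in the labels. The p-values here therefore weigh a difference against library spread that may be technical. The keratin KRT8 averaged 606 ± 222 CPM in clone B and 467 ± 223 CPM in clone A (SD, n = 3 each), and vimentin (VIM) 1995 ± 115 CPM in clone B and 2524 ± 408 CPM in clone A. Among other epithelial markers, KRT18 averaged 499 and 666 CPM (clone B, then clone A), KRT19 117 and 117, KRT7 6.53 and 7.33, and EPCAM 31.5 and 24.3. Among other mesenchymal markers, CDH2 averaged 230 and 175 CPM, ZEB1 101 and 68.5, and FN1 31.9 and 46.0. Neither set moved in a single direction. CDH1, the epithelial cadherin, had 67, 49 and 42 counts in clone B and 64, 63 and 50 counts in clone A, but 1010, 1048 and 824 counts in parental cells in TIFM. CPM stands here for edgeR's depth-scaled counts (its CPM) with library sizes adjusted by trimmed means (TMM).

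Some libraries held transcripts of other tissues. Over 12 liver genes, chosen after their values were seen, clone B libraries had 39, 50 and 42 summed counts, against 1345, 1210 and 24 in clone A libraries. Parental libraries in TIFM had 545, 324 and 1190 such counts. AFP, the fetal liver protein, had 0 counts in every clone B library and 248, 169 and 1 counts in clone A. Replicate 3 of clone A, which lacked these, instead held 98 counts of the globin HBB, 36 of LYZ and 17 of PTPRC, where clone B had 0 counts of HBB, 1, 0 and 4 of LYZ, and 3, 0 and 1 of PTPRC. The 21 markers of other cell types summed to between 139 and 167 CPM in clone B and between 181 and 319 CPM in clone A. Most of that sum was CD68, which shares 85.8% of its exon length with other genes. Of 4 such markers tested, 3 were called lower in clone B (VWF, MYH11 and CD68), 2 after the GC and length offset described next, under which CD68 differed by −0.09 (adjusted p = 0.621). INS had 0 counts throughout. In bulk RNA, fewer cells of a type and less RNA per cell cannot be told apart. Whether the liver and blood transcripts came from these cultures or were carried over from other samples was not tested, nor was their part in the results below.

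Base composition also moved with the contrast. Genes were split into 5 equal bins. In the bin lowest in GC content the median log2 difference (clone B minus clone A) was 0.53, and it was 0.26, −0.09, −0.37 and −0.53 in the bins of rising GC. By exon length the medians ran from −0.36 in the shortest bin to 0.31 in the longest. In the other conditions the same medians stayed between −0.07 and 0.02. Relative to the mean of all 27 libraries, the median of the highest GC bin less that of the lowest was −0.65, −0.39 and −0.35 (log2) in clone B, −0.21, 0.80 and 1.24 in clone A, and −0.08, 0.56 and −0.07 in parental TIFM libraries. Replicates 2 and 3 of clone A therefore lay apart from the clone B libraries on this axis, and replicate 1 lay nearer to them. Gene lists are given below with its count after a smooth GC and exon length trend of every library was removed as an offset, an alternative chosen after seeing the data. The part of this trend in each difference was not otherwise tested.

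**Figure D1:**
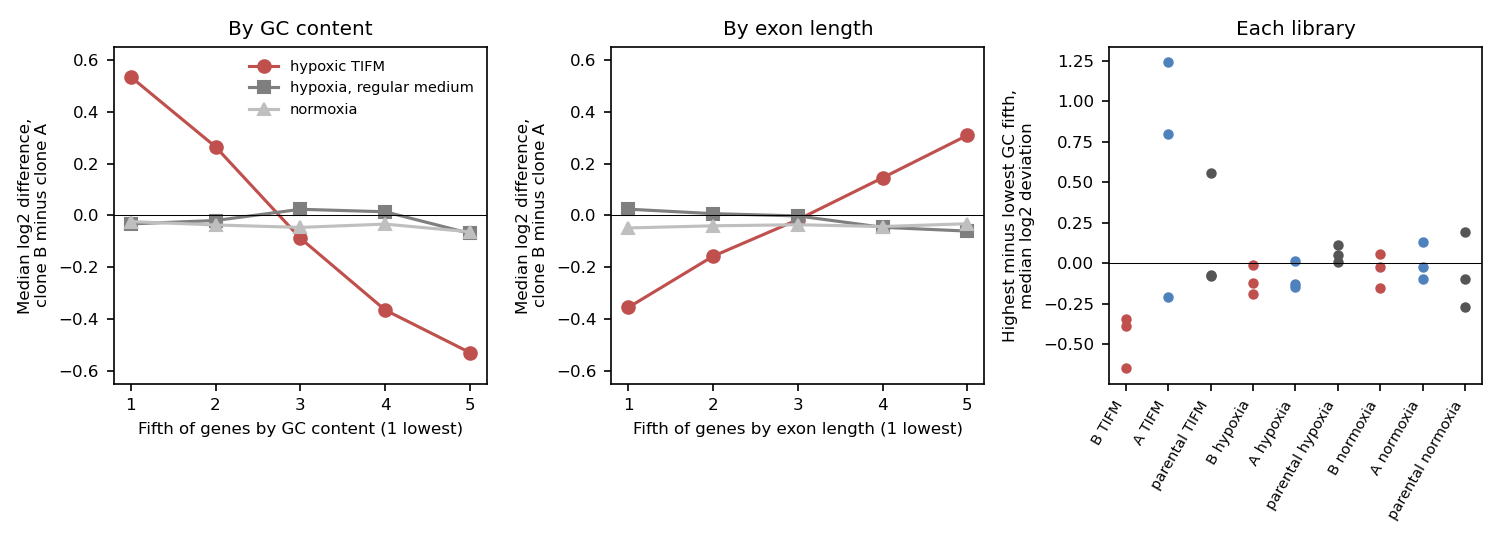
Median log2 difference of clone B minus clone A in 5 bins of genes by GC content and by exon length in TIFM, hypoxia and normoxia, and, for each library, the highest GC bin minus the lowest. In TIFM the medians run from 0.53 in the bin lowest in GC to −0.53 in the highest, while the other 2 conditions stay near 0.

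Clone B and clone A differed in 3879 of 12624 tested genes (30.7%) at an adjusted p under 0.05, with edgeR's quasi-likelihood test and Benjamini-Hochberg adjustment. Of these, 1630 genes (12.9%) were higher in clone B and 2249 (17.8%) lower. By at least 2-fold, 1023 genes were higher (8.1%) and 834 lower (6.61%). Clone B and clone A libraries did not overlap in CPM for 6212 genes (49.2%), called or not, and 3833 (30.4%) were called with separate libraries. The median over all tested genes was −0.01. Counts of calls rested on single libraries. Without replicate 2 of clone A only 552 genes were called (337 higher, 215 lower), whereas without replicate 1 of clone A the count was 6448. Leaving out clone B replicates 1, 2 or 3 gave 1626, 1213 or 1924. Replicates 1 and 3 of clone A, left together in the first of these fits, had a Spearman correlation of 0.962 across genes, below that of any other replicate pair of the study. With replicate number as a block, 6738 genes were called, 3383 higher and 3355 lower.

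ARNT transcripts (ARNT, chromosome 1, 150809705 to 150876768, minus strand, GRCh38) were present in both clones. ARNT stood at 49.98, 53.3 and 44.5 CPM in clone B and 54.3, 58.8 and 52.3 CPM in clone A, with overlapping libraries and a log2 difference of −0.16 ± 0.17 (SE, adjusted p = 0.48). Parental cells averaged 64.2 ± 4.53 CPM (SD, n = 3). An edited gene can still be transcribed, so these counts do not check the knockout. HIF1A, the oxygen-regulated partner, was higher in clone B at 252, 263 and 316 CPM, against 162, 115 and 86.5 CPM in clone A (log2 1.19 ± 0.24, adjusted p = 0.00896). ARNT2, a paralog of ARNT that can pair with HIF subunits, stood at 2.72, 2.54 and 2.03 CPM in clone B and 1.11, 1.47 and 1.09 CPM in clone A (0.99 ± 0.30, adjusted p = 0.0341), far below its parental level of 31.4 ± 3.98 CPM. Both calls were lost without replicate 2 of clone A, and that of ARNT2 also without any of 4 other libraries. Those were the 2 of 7 tested components that were called, also after the GC and length offset. After it HIF1A differed by 0.69 and ARNT2 by 1.15. EPAS1, AHR, VHL and HIF1AN did not pass (log2 0.11, 0.57, 0.03 and −0.05), and AHR stood at −0.06 after the offset. The hydroxylases EGLN1 and EGLN2, the AHR repressor AHRR and HIF3A were listed at or near 0 counts, and EGLN3 was too low to test. How reads over overlapping genes were counted is not stated (EGLN2 shares 30.6% of its exons), so a count near 0 does not show that a gene was silent.

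The largest rises in clone B included adhesion, matrix and signaling genes that were nearly silent in clone A. The 15 largest, among called genes with separate libraries and at least 5 CPM in the higher clone, had log2 differences between 4.10 and 5.37. EPHB6, an Eph receptor that lacks kinase activity (chromosome 7, 142855061 to 142871094), stood at 10.2, 14.98 and 21.4 CPM in clone B and 0.135, 0.570 and 0.447 CPM in clone A (5.37 ± 0.49, adjusted p = 0.000321). EDIL3, an integrin-binding matrix protein, reached 55.3, 71.0 and 72.3 CPM in clone B, against 2.06, 1.75 and 1.84 CPM in clone A (5.13 ± 0.23, adjusted p = 9.68e-06). SCUBE3, a secreted EGF-domain protein, reached 57.7, 70.1 and 71.0 CPM in clone B, against 2.29, 2.08 and 2.04 CPM in clone A (4.95 ± 0.22). For these genes every clone B library exceeded every clone A library by a wide margin, and separate libraries were part of the rule that chose them. The plasma membrane calcium pump ATP2B4 had 53.4, 52.1 and 46.2 CPM in clone B and 2.26, 2.53 and 2.38 CPM in clone A (4.40 ± 0.21). IGFBP7, which binds insulin-like growth factors, had 65.5, 78.7 and 81.2 CPM in clone B and 3.77, 3.18 and 4.67 CPM in clone A (4.28 ± 0.23), with 18.9% of its exons shared with another gene.

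The other 10 rises included regulators and scaffolds. HIVEP3, a zinc finger transcription factor, averaged 22.5 ± 1.79 CPM in clone B and 0.532 ± 0.258 CPM in clone A (SD, n = 3 each; 5.34 ± 0.34). MAF, a bZIP transcription factor, averaged 6.12 ± 2.87 CPM in clone B and 0.150 ± 0.0608 CPM in clone A (5.32 ± 0.54). NEDD9, a scaffold of focal adhesion signaling, averaged 28.4 ± 10.7 CPM in clone B and 1.02 ± 0.536 CPM in clone A (4.83 ± 0.46). PLA2R1, the receptor of secreted phospholipase A2, rose by 4.62 ± 0.50, the phosphatase PPM1H by 4.63 ± 0.38, and LIPG, the endothelial lipase, by 4.10 ± 0.29. ITGB8, the integrin subunit that with ITGAV activates latent TGF-beta, differed most among clone B libraries, at 2.33, 5.52 and 18.8 CPM, and stood at 0.236, 0.448 and 0.348 CPM in clone A (4.69 ± 0.79, adjusted p = 0.00522). Its call was lost without replicate 2 or replicate 3 of clone A. The call of each other gene among these 15 held in all 16 alternatives. FRMPD3 (4.28 ± 0.34), SLC66A1L (4.34 ± 0.37) and TRBC2 (4.41 ± 0.27), the T cell receptor beta constant segment close to EPHB6 on chromosome 7, complete the set. TRBC2 has a near-identical copy, so its counts are uncertain.

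All 15 of these genes were also called higher in clone B in hypoxic regular medium and in normoxia, in separate libraries. Against parental cells in TIFM they fell on either side. On a log2(CPM + 0.1) scale the parental mean lay nearer clone B for 8 of them (HIVEP3, EDIL3, ITGB8, PPM1H, PLA2R1, ATP2B4, SLC66A1L and LIPG) and nearer clone A for 7 (EPHB6, MAF, SCUBE3, NEDD9, TRBC2, FRMPD3 and IGFBP7). EDIL3, for example, averaged 101 ± 24.1 CPM in parental cells and EPHB6 0.153 ± 0.0759 CPM.

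**Figure D2:**
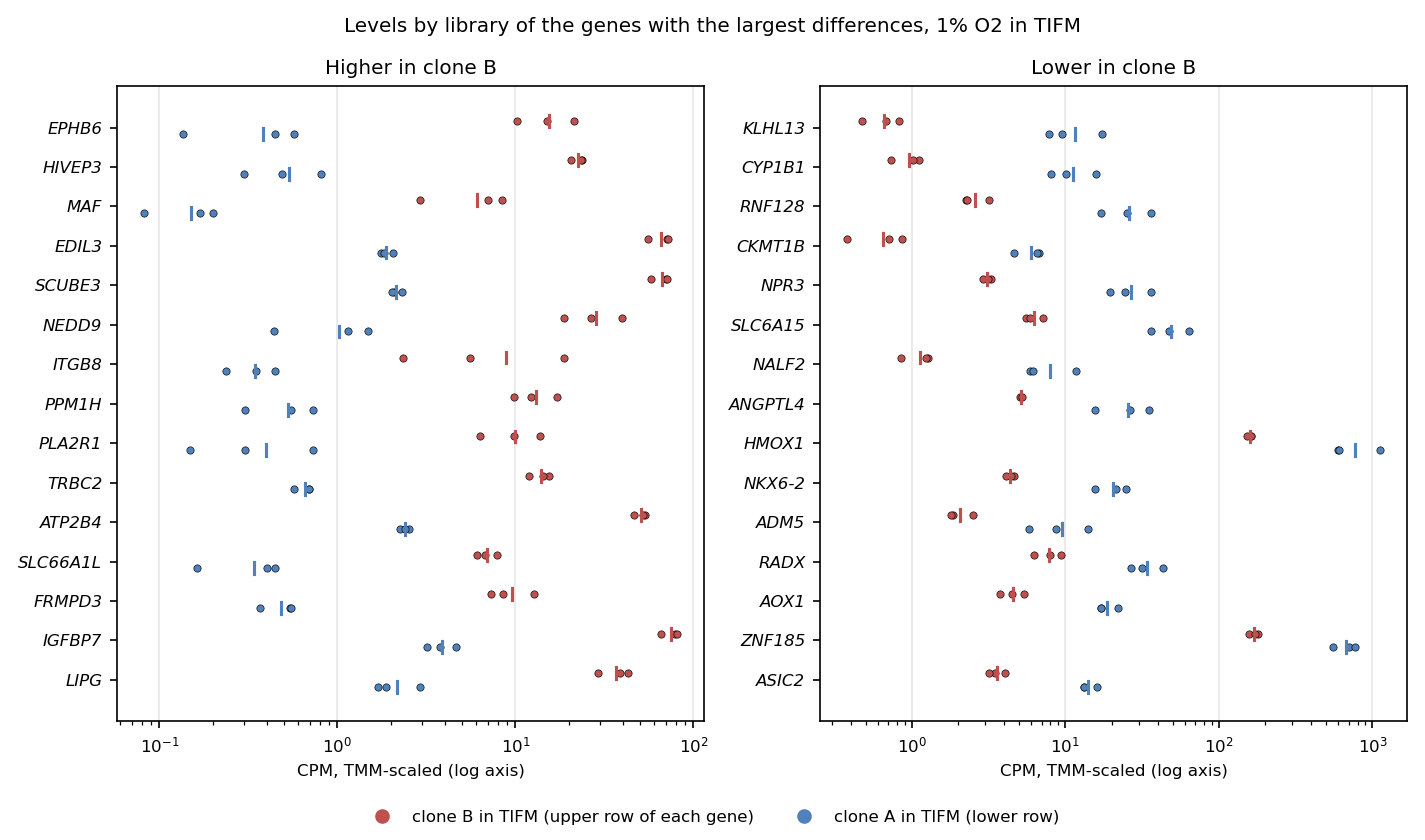
CPM on a log axis of the 15 largest rises and 15 largest falls in each library of clone B (upper row of each gene) and clone A (lower row) in TIFM, with a bar at each mean. Clone B points do not overlap clone A points for any of the 30 genes, as the rule that chose them required.

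The 15 largest falls were smaller, with log2 differences between −4.12 and −1.98, and 5 of them lie on the X chromosome. KLHL13, a substrate adaptor of a cullin ubiquitin ligase, stood at 0.831, 0.474 and 0.678 CPM in clone B and 9.57, 7.86 and 17.4 CPM in clone A (−4.12 ± 0.39, adjusted p = 0.000424). CYP1B1, the cytochrome P450 that AHR and ARNT induce, stood at 0.735, 1.12 and 1.02 CPM in clone B and 15.7, 10.1 and 8.09 CPM in clone A (−3.56 ± 0.34, adjusted p = 0.000423). Parental cells had 203 ± 47.7 CPM of it, so both clones were far lower and clone B lowest. RNF128, a ubiquitin ligase, had 3.20, 2.24 and 2.30 CPM in clone B and 36.0, 25.3 and 17.1 CPM in clone A (−3.34 ± 0.32). Its neighbor on the X chromosome, RADX, which binds single-stranded DNA at replication forks, averaged 7.85 ± 1.61 CPM in clone B and 34.0 ± 8.51 CPM in clone A (−2.11 ± 0.26).

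HMOX1, the heme oxygenase induced by oxidative stress, had 161, 162 and 152 CPM in clone B and 594, 1125 and 602 CPM in clone A (−2.29 ± 0.26, adjusted p = 0.000927). ANGPTL4, a secreted inhibitor of lipoprotein lipase and a hypoxia target, had 5.11, 5.08 and 5.23 CPM in clone B and 15.7, 26.3 and 34.9 CPM in clone A (−2.31 ± 0.30, adjusted p = 0.00182), where parental cells had 284 ± 94.2 CPM. Clone B libraries hardly varied for both genes, and clone A libraries varied but stayed above them. SLC6A15, a transporter of branched-chain amino acids and proline, averaged 6.21 ± 0.866 CPM in clone B and 49.0 ± 13.7 CPM in clone A (−2.98 ± 0.26). NPR3, the natriuretic peptide clearance receptor, fell by 3.10 ± 0.27 and the acid-sensing channel ASIC2 by 1.98 ± 0.22. AOX1, aldehyde oxidase, averaged 4.55 ± 0.822 CPM in clone B and 18.6 ± 2.86 CPM in clone A (−2.03 ± 0.24), and the actin-associated LIM protein ZNF185 169 ± 12.1 CPM in clone B and 675 ± 109 CPM in clone A (−1.99 ± 0.18). The homeobox factor NKX6-2 (−2.23), the channel subunit NALF2 (−2.82), ADM5 (−2.21, with 36.2% of its exons shared) and the mitochondrial creatine kinase CKMT1B (−3.17) complete the set. CKMT1B has a near-identical copy and its counts are uncertain. All 15 falls held in all 16 alternatives, and 12 were called lower in hypoxia and 12 in normoxia. The parental mean lay nearer clone A for 4 (CYP1B1, RNF128, ANGPTL4 and ASIC2) and nearer clone B for 11.

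Genes of amino acid supply were lower in clone B. Of 30 tested members of the ATF4 and amino acid response, 18 fell and 1 rose (median log2 −0.82, against −0.01 over all genes, of which 17.8% fell). After the GC and length offset 16 fell and 1 rose, and with the replicate block 21 fell and 2 rose. Between 7 (without clone A replicate 2) and 20 fell with a library left out. Members of this list were also lower in the other conditions. In hypoxic regular medium 14 of 30 fell and 2 rose (16.6% of all genes fell). In normoxia 23 fell and 2 rose (30.6% of all genes fell). The interaction was called lower for 8 of 30 and higher for 2 (14.1% and 10.4% of all genes). ATF4 itself, outside the rule for named genes, averaged 644 ± 65.8 CPM in clone B and 1296 ± 330 CPM in clone A (SD, n = 3 each; −1.01 ± 0.20, adjusted p = 0.00946). DDIT4, a brake on mTORC1, had 87.5, 94.0 and 86.8 CPM in clone B and 219, 331 and 306 CPM in clone A (−1.67 ± 0.19, adjusted p = 0.000994), with 41.2% of its exons shared. The glutamine transporter SLC1A5 had 152, 174 and 159 CPM in clone B and 302, 454 and 481 CPM in clone A (−1.35 ± 0.20). PPP1R15A, which directs the phosphatase that reverses eIF2 phosphorylation, had 225, 254 and 272 CPM in clone B and 466, 602 and 839 CPM in clone A (−1.34 ± 0.22). For each of these genes the clones did not overlap, as for 49.2% of all tested genes and 3833 of the 3879 called ones. SLC7A5, the leucine transporter, averaged 297 ± 14.7 CPM in clone B and 682 ± 159 CPM in clone A (−1.20 ± 0.20). The calls of DDIT4, SLC1A5, PPP1R15A and SLC7A5 held in all 16 alternatives. Their differences were smaller after the GC and length offset, at −1.05, −0.80, −0.81 and −0.71. DDIT3, which encodes CHOP, did not pass (−0.04 ± 0.31, with 39.6% of its exons shared), and XPOT, the tRNA exporter, was the single member that rose (1.09 ± 0.19).

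Promoters of 5 members that fell are shown with the matches to TGATGNAA, the letters common to the C/EBP-ATF response element that ATF4 binds, because these genes moved together. They are RefSeq promoter entries on GRCh38.p14, from 250 bases before to 50 after the annotated start, printed 5′ to 3′ on the strand of the gene with the match in capitals. A match on the opposite strand reads TTNCATCA. Where a gene has several entries, the one with the match is shown. The motif was searched on both strands and stood in 3.62% of 35116 promoter entries and in 4.46% of the genes with an entry. Of the 30 tested list members 26 had an entry, and 9 of these held the motif. Of 17 members that fell and had an entry, 8 held it. The list was put together as an ATF4 response, so a share above that of all genes may follow from its choice alone. A match describes the sequence and shows neither a bound site nor a cause.
ATF3: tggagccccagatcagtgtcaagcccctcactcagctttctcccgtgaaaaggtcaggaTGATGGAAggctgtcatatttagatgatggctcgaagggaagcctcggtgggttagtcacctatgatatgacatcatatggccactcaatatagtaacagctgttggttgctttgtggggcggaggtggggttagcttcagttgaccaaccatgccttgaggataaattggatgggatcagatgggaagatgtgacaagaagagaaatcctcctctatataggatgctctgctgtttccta
CHAC1: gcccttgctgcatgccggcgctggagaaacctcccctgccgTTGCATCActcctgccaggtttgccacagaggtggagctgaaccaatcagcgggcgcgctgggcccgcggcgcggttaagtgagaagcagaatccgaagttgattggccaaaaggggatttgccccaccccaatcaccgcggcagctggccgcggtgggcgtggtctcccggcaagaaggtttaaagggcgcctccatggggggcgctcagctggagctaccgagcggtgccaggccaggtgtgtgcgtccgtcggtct
ASNS: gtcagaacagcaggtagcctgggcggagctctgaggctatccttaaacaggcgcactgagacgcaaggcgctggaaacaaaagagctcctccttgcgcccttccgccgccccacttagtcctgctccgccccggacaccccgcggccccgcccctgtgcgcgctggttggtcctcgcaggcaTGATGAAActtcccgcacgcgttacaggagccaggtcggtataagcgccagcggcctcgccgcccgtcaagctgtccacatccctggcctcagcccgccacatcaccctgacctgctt
SLC3A2: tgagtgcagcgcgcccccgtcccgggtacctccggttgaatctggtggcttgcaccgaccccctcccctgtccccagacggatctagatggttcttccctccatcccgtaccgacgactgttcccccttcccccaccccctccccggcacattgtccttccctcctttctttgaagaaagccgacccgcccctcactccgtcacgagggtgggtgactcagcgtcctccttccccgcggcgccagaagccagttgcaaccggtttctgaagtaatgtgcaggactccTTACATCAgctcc
SLC7A1: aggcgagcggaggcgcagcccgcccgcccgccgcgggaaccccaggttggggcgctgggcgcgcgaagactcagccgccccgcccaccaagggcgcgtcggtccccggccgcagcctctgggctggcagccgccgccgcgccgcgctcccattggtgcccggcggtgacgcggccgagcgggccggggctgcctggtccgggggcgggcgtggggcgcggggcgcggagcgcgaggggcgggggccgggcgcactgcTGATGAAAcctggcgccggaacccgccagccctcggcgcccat

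ATF3, a stress-induced transcription factor whose entry is chr1:212565157-212565456 (plus strand), had 73.5, 71.7 and 61.3 CPM in clone B and 148, 188 and 172 CPM in clone A (−1.30 ± 0.18, adjusted p = 0.00223). CHAC1, which degrades glutathione (chr15:40953221-40953520, plus strand), averaged 13.6 ± 1.80 CPM in clone B and 28.99 ± 6.77 CPM in clone A (−1.09 ± 0.23). ASNS, asparagine synthetase (chr7:97872359-97872658, minus strand), had 1055, 1254 and 1208 CPM in clone B and 1775, 2029 and 2703 CPM in clone A (−0.89 ± 0.19, adjusted p = 0.0113), with 44.6% of its exons shared. All clone B libraries lay below all clone A libraries for these genes, and libraries were separate for 3833 of the 3879 called genes. SLC3A2, the heavy chain that carries SLC7A5 to the membrane (chr11:62881449-62881748, plus strand), averaged 382 ± 11.1 CPM in clone B and 859 ± 241 CPM in clone A (−1.17 ± 0.21). SLC7A1, a cationic amino acid transporter (chr13:29595639-29595938, minus strand), averaged 476 ± 20.0 CPM in clone B and 877 ± 44.8 CPM in clone A (−0.88 ± 0.14). CHAC1, ASNS, SLC3A2 and SLC7A1 were named for their promoter match, outside the rule. SLC3A2 differed by 0.24 in hypoxic regular medium, which did not pass, and its interaction was −1.41 (adjusted p = 0.00303). ASNS differed by −0.99 in that medium and its interaction did not pass (0.11, adjusted p = 0.759).

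Enzymes that make serine, glycine and one-carbon units were also lower in clone B. Of 13 tested, 8 fell and 0 rose (median −0.68), where 17.8% of all genes fell. As many fell after the offset, and 9 fell with the block. Fewest fell without clone A replicate 2 (2 of 13), and 3 or 4 without any single clone B library. PHGDH, the first enzyme of serine synthesis, had 161, 192 and 178 CPM in clone B and 311, 477 and 501 CPM in clone A (−1.28 ± 0.21, adjusted p = 0.00468). SHMT1, the cytosolic hydroxymethyltransferase, averaged 12.8 ± 1.29 CPM in clone B and 32.9 ± 5.32 CPM in clone A (−1.36 ± 0.21). Both calls held in all 16 alternatives. PSPH, the phosphatase that ends serine synthesis, averaged 58.8 ± 7.25 CPM in clone B and 114 ± 25.5 CPM in clone A (−0.95 ± 0.21), a call lost without clone A replicate 2 or clone B replicate 1. In hypoxic regular medium 8 of 13 fell as well (16.6% of all genes) and in normoxia 11 of 13 (30.6% of all genes), and PHGDH differed there by −1.34 and −1.44.

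Cytosolic aminoacyl-tRNA synthetases, which load tRNAs, fell in 10 of 20 members and rose in 1, the isoleucine enzyme IARS1 (0.54 ± 0.16, outside the rule). Of all genes 17.8% fell and 12.9% rose. The list's median was −0.52, and 7 fell and 0 rose after the offset. With the block 12 fell and 3 rose. Without clone A replicate 2 none was called, and without single clone B libraries 1 to 3 fell. In hypoxic regular medium 7 of 20 fell and 2 rose (16.6% of all genes fell). In normoxia 14 fell and 1 rose (30.6% of all genes fell). VARS1, the valine enzyme, averaged 106 ± 10.7 CPM in clone B and 234 ± 73.6 CPM in clone A (−1.15 ± 0.24, adjusted p = 0.0107), and YARS1 301 ± 15.6 CPM in clone B and 502 ± 69.6 CPM in clone A (−0.74 ± 0.16). FARSA (−0.90 ± 0.26) lost its call after the offset. Arginine, proline and polyamine genes were split, with 3 higher and 3 lower of 15, against 12.9% and 17.8% of all genes (3 and 1 after the offset, 4 and 5 with the block, 1 and 0 without clone A replicate 2, and 2 or 3 higher with 1 or 2 lower without a clone B library). SAT1, which acetylates spermidine, averaged 305 ± 64.2 CPM in clone B and 133 ± 34.9 CPM in clone A (1.20 ± 0.23). SMS, spermine synthase, averaged 338 ± 20.7 CPM in clone B and 164 ± 22.5 CPM in clone A (1.04 ± 0.16), and AZIN1, the antizyme inhibitor, 919 ± 11.4 CPM in clone B and 494 ± 143 CPM in clone A (0.90 ± 0.21). PYCR1, the last enzyme of proline synthesis, fell by 1.16 ± 0.23, with 29.7% of its exons shared. Of the genes named here, the SMS call held in all 16 alternatives and the others were lost without clone A replicate 2.

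Glycolysis genes were lower in clone B in TIFM and mixed elsewhere. Of 18 tested, 11 fell and 0 rose (median −0.80), where 17.8% of all genes fell and 12.9% rose. After the offset 8 fell, with the block 13, and without clone A replicate 2 only 1. Leaving out clone B replicate 1 or 2 left 3 or 4. In hypoxic regular medium 4 of 18 rose and 2 fell, where 16.7% of all genes rose and 16.6% fell. In normoxia 5 of 17 rose and 4 fell, where 24.4% of all genes rose and 30.6% fell. The interaction was called lower for 8 of 18 (14.1% of all genes) and higher for 0. HK2, hexokinase 2, had 45.9, 44.0 and 33.1 CPM in clone B and 167, 147 and 111 CPM in clone A (−1.79 ± 0.22, adjusted p = 0.00139), near the parental 160 ± 12.9 CPM. This call held in all 16 alternatives. ENO1, enolase, had 3184, 4038 and 4010 CPM in clone B and 5051, 8635 and 9585 CPM in clone A (−1.05 ± 0.24, adjusted p = 0.0144). TPI1, triosephosphate isomerase, averaged 365 ± 43.9 CPM in clone B and 756 ± 236 CPM in clone A (−1.05 ± 0.24), and the transporter SLC2A3 0.548 ± 0.0525 CPM in clone B and 1.18 ± 0.153 CPM in clone A (−1.09 ± 0.34). The last 3 calls were lost without clone A replicate 2. LDHA, lactate dehydrogenase, did not pass (−0.37 ± 0.18, adjusted p = 0.145).

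HIF targets outside glycolysis were split, with 8 of 36 higher and 6 lower (median −0.01). Of all genes 12.9% were higher and 17.8% lower, so the share of HIF targets that fell lay near that of all genes. After the offset 8 rose and 9 fell, with the block 10 rose and 9 fell, and without clone A replicate 2 the counts were 2 and 3. Without clone B replicates 1, 2 or 3 they were 5 and 4, 2 and 4, or 5 and 4. PPP1R3C, which targets a phosphatase to glycogen, had 13.9, 14.2 and 28.6 CPM in clone B and 3.37, 3.18 and 3.92 CPM in clone A (2.44 ± 0.32, adjusted p = 0.00217). CXCR4, the chemokine receptor, averaged 2.54 ± 0.279 CPM in clone B and 0.663 ± 0.167 CPM in clone A (1.95 ± 0.33). ANGPTL4 and DDIT4, given above, were the largest falls. VEGFA did not pass (−0.46 ± 0.23, adjusted p = 0.15). Of 7 tested AHR targets, 0 rose and 2 fell, CYP1B1 and SLC7A5, and both calls held in all 16 alternatives. After the offset the counts were the same, and with the block 2 AHR targets rose and 3 fell.

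Genes of cholesterol synthesis and uptake fell in 10 of 22 and rose in 0 (median −0.46), where 17.8% of all genes fell and 12.9% rose. They fell in 13 after the offset, and in 13 with 1 higher under the block. Without clone A replicate 2 the count was 2, and without any single clone B library it was 6. SREBF2, the transcription factor of this pathway, averaged 66.2 ± 6.63 CPM in clone B and 172 ± 30.6 CPM in clone A (−1.38 ± 0.19). This call held in all 16 alternatives. INSIG1, which retains SREBF2 in the endoplasmic reticulum, fell by 1.41 ± 0.26 and DHCR7, the last reductase of the pathway, by 1.29 ± 0.24, and both calls were lost without clone A replicate 2. Among 14 fatty acid genes 5 fell and 1 rose (7 and 1 after the offset, 7 and 2 with the block, 0 and 1 without clone A replicate 2, and 2 or 3 and 1 without a clone B library). The gene that rose was the desaturase SCD5, with 43.9, 44.8 and 50.2 CPM in clone B and 6.77, 7.29 and 7.05 CPM in clone A (2.72 ± 0.19, adjusted p = 0.000111), and it held in all 16 alternatives. SCD, its abundant relative, averaged 821 ± 149 CPM in clone B and 1552 ± 124 CPM in clone A (−0.92 ± 0.18), and the synthase FASN 105 ± 9.37 CPM in clone B and 223 ± 50.7 CPM in clone A (−1.08 ± 0.20). SREBF1, the transcription factor of fatty acid synthesis, fell by 0.99 ± 0.24.

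Cytosolic ribosomal protein genes had the lowest median of the 33 lists. Of 43 tested, 32 fell and 0 rose (median −0.97), where 17.8% of all genes fell and 12.9% rose. After the offset 25 fell, and with the block 37 fell and 2 rose. The count was 2 without clone A replicate 2 and between 14 and 24 without single clone B libraries. RPL35 averaged 184 ± 32.4 CPM in clone B and 511 ± 211 CPM in clone A (−1.47 ± 0.29), RPS19 166 ± 25.1 CPM in clone B and 452 ± 191 CPM in clone A (−1.44 ± 0.29), and RPL18 204 ± 30.5 CPM in clone B and 505 ± 187 CPM in clone A (−1.31 ± 0.27). These transcripts varied widely among the clone A libraries and lost their calls without its replicate 2. They also have processed pseudogenes, so the counts are uncertain. Of the 22 ribosome biogenesis genes tested, 13 fell and 0 rose (median −0.75; 12 after the offset, 15 with 1 higher under the block, 2 without clone A replicate 2, 9 or 10 without a clone B library). FBL, the methyltransferase fibrillarin, had 4735, 5895 and 5763 CPM in clone B and 9074, 13308 and 15400 CPM in clone A (−1.20 ± 0.22). BOP1 fell by 1.42 ± 0.25, NOC2L by 1.06 ± 0.21 and RRP9 by 1.39 ± 0.22, of which RRP9 alone held in all 16 alternatives. After the offset BOP1, NOC2L and RRP9 differed by −0.83, −0.64 and −0.68. In hypoxic regular medium 27 of 43 ribosomal protein genes fell as well (median −0.29; 16.6% of all genes fell), but 1 of 22 biogenesis genes did.

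In TIFM the respiratory chain genes that were called were lower where nuclear-encoded and higher where mitochondrial. Of all genes 17.8% fell and 12.9% rose. Among 36 nuclear-encoded subunits 20 fell and 0 rose (median −0.58), with 16 after the offset, 24 with 1 higher under the block, 2 without clone A replicate 2, and 4 to 9 without a clone B library. Among the 13 transcripts of mitochondrial DNA 5 rose and 0 fell (median 0.50), with 5 after the offset, 9 with the block, and 0 without clone A replicate 2 or any single clone B library. CYC1, the cytochrome c1 of complex III, averaged 69.4 ± 7.55 CPM in clone B and 173 ± 64.96 CPM in clone A (−1.31 ± 0.28, adjusted p = 0.0107). COX6B1 averaged 123 ± 13.04 CPM in clone B and 273 ± 72.6 CPM in clone A (−1.15 ± 0.22), and UQCRC1 55.1 ± 7.20 CPM in clone B and 121 ± 37.1 CPM in clone A (−1.13 ± 0.25). COX6A1 was called at −1.99 ± 0.51, but at under 1 CPM and with 13% of its exons shared, so its count is uncertain. MT-ND5, a complex I subunit, had 1159, 1297 and 1390 CPM in clone B and 909, 868 and 861 CPM in clone A (0.54 ± 0.15, adjusted p = 0.0245), and MT-CYB, of complex III, had 1570, 1882 and 2096 CPM in clone B and 1219, 1195 and 1409 CPM in clone A (0.54 ± 0.17). MT-ND2 (0.55 ± 0.16) and MT-ND6 (0.50 ± 0.15) lost their calls after the offset. Mitochondrial transcripts made up between 2.42% and 2.85% of counts in clone B and between 1.78% and 1.80% in clone A. The interaction with medium was called higher for 9 of the 13 mitochondrial transcripts (10.4% of all genes) and lower for 16 of the 36 nuclear-encoded subunits (14.1%). In hypoxic regular medium 0 mitochondrial transcripts rose and 2 fell. There 5 of 35 nuclear-encoded subunits rose and 2 fell (16.7% and 16.6% of all genes). In normoxia 0 mitochondrial transcripts were called, and 5 of 35 nuclear-encoded subunits rose and 11 fell (24.4% and 30.6% of all genes).

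DNA replication genes fell in 12 of 29 and rose in 1 (median −0.50), where 17.8% of all genes fell and 12.9% rose. The counts were 15 and 1 after the offset, 16 and 2 with the block, and 4 and 0 without clone A replicate 2. Without a clone B library 4 to 8 fell and 1 rose. In hypoxic regular medium 13 of 29 replication genes fell and 1 rose (16.6% of all genes fell). In normoxia 26 replication genes fell and 1 rose (30.6% of all genes fell). The helicase subunit MCM2 had 238, 265 and 236 CPM in clone B and 496, 822 and 783 CPM in clone A (−1.51 ± 0.21, adjusted p = 0.00272), with 23.6% of its exons shared. MCM5 fell by 1.41 ± 0.22 and MCM7 by 1.38 ± 0.24, and the 3 MCM calls held in all 16 alternatives. After the offset MCM2, MCM5 and MCM7 differed by −1.05, −1.09 and −0.91. POLD1, the catalytic subunit of DNA polymerase delta, fell by 1.11 ± 0.26, and the member that rose was POLA1 on the X chromosome (0.98 ± 0.20, outside the rule). Mitosis genes fell in 10 of 24 and rose in 1, yet their median was 0.01. After the offset 8 fell and 2 rose, with the block 10 fell and 8 rose, and without clone A replicate 2 the counts were 1 and 0. Without clone B replicates 1, 2 or 3, 5, 2 or 5 fell. PLK1, the polo-like kinase, averaged 30.6 ± 2.27 CPM in clone B and 73.0 ± 15.7 CPM in clone A (−1.25 ± 0.21, held in all 16 alternatives), with 12.5% of its exons shared. CENPE, a kinetochore motor, averaged 43.4 ± 10.0 CPM in clone B and 17.6 ± 6.05 CPM in clone A (1.30 ± 0.29). AURKB fell by 1.07 ± 0.22 and CDC20 by 1.06 ± 0.24, and CDC20 lost its call after the offset (adjusted p = 0.0513). In hypoxic regular medium 21 of 24 mitosis genes fell (16.6% of all genes) and in normoxia 22 (30.6% of all genes), with 0 higher. The interaction was called higher for 10 of 24 and lower for 1 (10.4% and 14.1% of all genes).

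**Figure D3:**
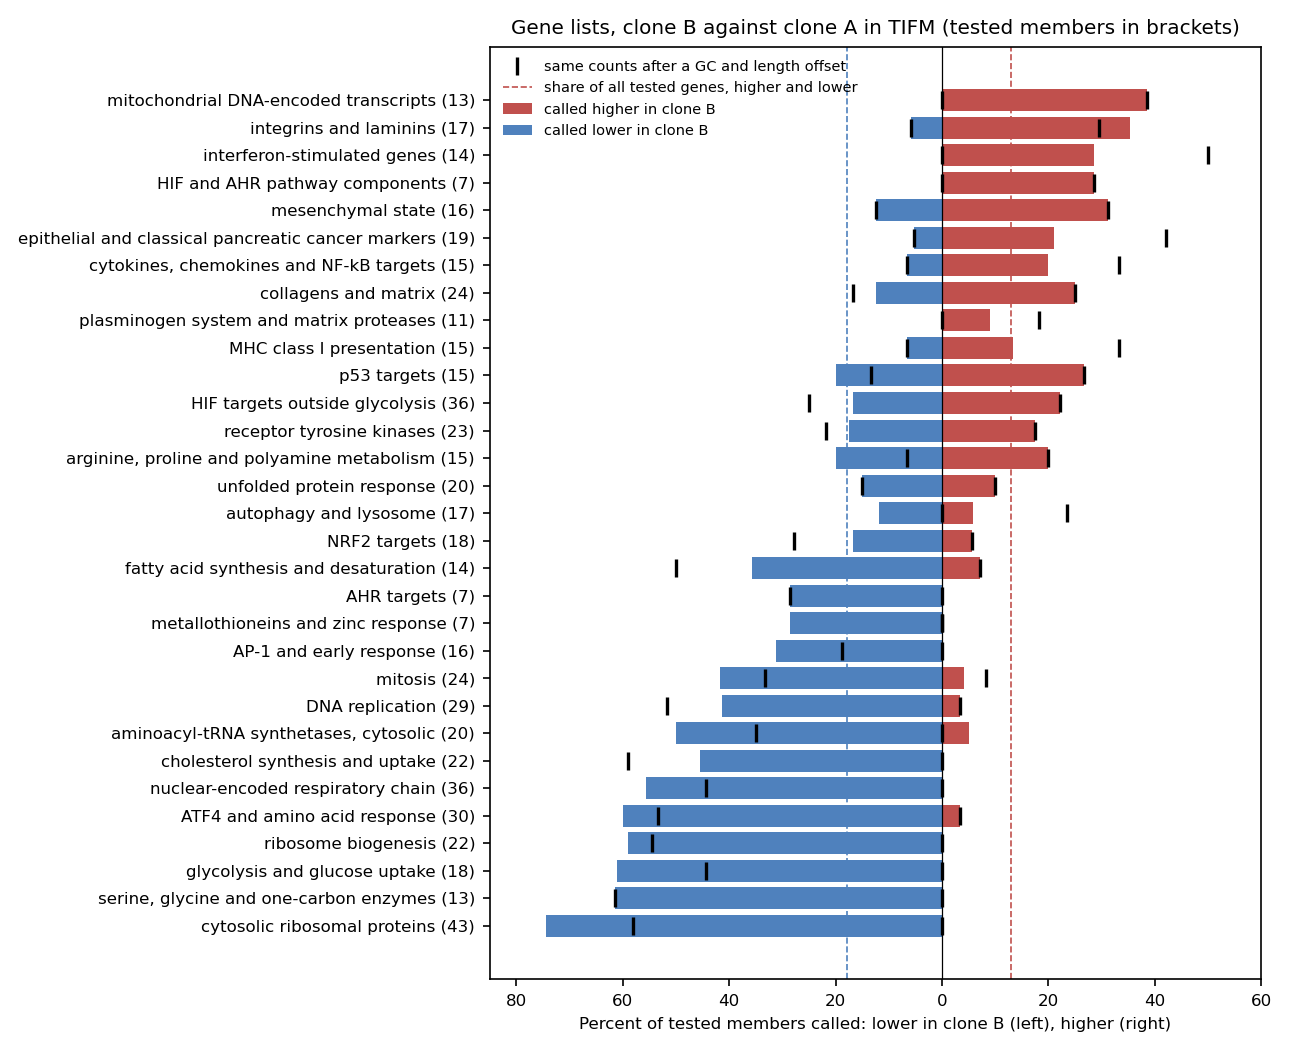
Members of each gene list called higher and lower in clone B than in clone A in TIFM, as shares of the members tested, for the 31 lists shown, with dashed lines at the shares of all tested genes and black ticks after the GC and length offset. Ribosomal proteins stand at the bottom with 32 of 43 lower, and mitochondrial DNA-encoded transcripts stand out with 5 of 13 higher and 0 lower.

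Integrins and laminins rose in 6 of 17 and fell in 1 (median 0.41), against 12.9% of all genes that rose. After the offset 5 rose, with the block 8, and without clone A replicate 2 only 1, and 3 or 4 without single clone B libraries. LAMB1, a laminin chain, had 93.4, 96.8 and 97.7 CPM in clone B and 28.5, 23.5 and 22.4 CPM in clone A (1.95 ± 0.18, adjusted p = 0.000344). ITGAV, the integrin alpha V subunit, had 716, 747 and 814 CPM in clone B and 407, 234 and 199 CPM in clone A (1.44 ± 0.26). ITGA2, a collagen receptor subunit, rose by 1.12 ± 0.32 but lost its call after the offset, and the LAMB1 call held in all 16 alternatives. Collagens and matrix genes rose in 6 of 24 and fell in 3 (median −0.18), with 6 and 4 after the offset, 7 and 8 with the block, and 3 and 1 without clone A replicate 2. Without a clone B library 4 or 5 rose and 2 fell. COL5A1, a fibrillar collagen chain, had 66.3, 55.6 and 43.0 CPM in clone B and 7.24, 5.87 and 6.45 CPM in clone A (3.07 ± 0.23, adjusted p = 0.000174). COL1A1 averaged 173 ± 37.1 CPM in clone B and 26.7 ± 10.3 CPM in clone A (2.69 ± 0.30), and COL5A2 34.9 ± 4.33 CPM in clone B and 7.97 ± 1.07 CPM in clone A (2.13 ± 0.21). These collagen calls held in all 16 alternatives. Thrombospondin 1 (THBS1) rose by 2.29 ± 0.48, a call lost without clone A replicate 2. Of 11 proteases and plasminogen genes 1 rose and 0 fell (2 and 0 after the offset, 2 and 2 with the block), the gelatinase MMP2 at 39.0 ± 2.15 CPM in clone B and 19.4 ± 3.52 CPM in clone A (1.00 ± 0.20).

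Mesenchymal and epithelial markers both held members that rose, where 12.9% of all genes rose and 17.8% fell. Of 16 mesenchymal genes 5 rose and 2 fell (median 0.29; 5 and 2 after the offset, 7 and 4 with the block, 3 and 0 without clone A replicate 2, 3 to 5 and 1 without a clone B library). TGFB2, a ligand that drives the mesenchymal state, had 191, 203 and 228 CPM in clone B and 46.1, 33.6 and 45.9 CPM in clone A (2.31 ± 0.19, adjusted p = 0.000226), with 26.6% of its exons shared. SNAI2, a repressor of epithelial genes, had 16.7, 13.7 and 11.6 CPM in clone B and 3.34, 3.22 and 2.48 CPM in clone A (2.21 ± 0.25). ZEB2, of the same class, averaged 2.83 ± 0.0433 CPM in clone B and 0.603 ± 0.1698 CPM in clone A (2.22 ± 0.33). These 3 calls held in all 16 alternatives, and that of TWIST2 (2.16 ± 0.57) was lost without clone A replicate 2 and 2 clone B libraries in turn. Of 19 epithelial and classical pancreatic cancer markers 4 rose and 1 fell (median 0.38; 8 and 1 after the offset, 6 and 2 with the block, 2 and 0 without clone A replicate 2, 2 to 4 and 1 without a clone B library). CLDN1, a tight junction protein, had 112, 98.0 and 80.5 CPM in clone B and 26.6, 22.6 and 16.9 CPM in clone A (2.13 ± 0.23). AGR2, a disulfide isomerase of mucous cells, averaged 11.3 ± 1.46 CPM in clone B and 2.72 ± 0.671 CPM in clone A (2.06 ± 0.26), and MUC1 rose by 1.71 ± 0.40 and ELF3 by 1.65 ± 0.52 at under 2 CPM. Of these, the CLDN1 and AGR2 calls held in all 16 alternatives. Of the 14 basal-like markers only 2 could be tested, and 0 were called (1 higher after the offset and with the block).

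Receptor tyrosine kinases were split, with 4 of 23 higher and 4 lower (4 and 5 after the offset, 7 and 6 with the block, 3 and 0 without clone A replicate 2, 4 and 2 or 3 without a clone B library). Both counts lay near the shares of all genes, 12.9% higher and 17.8% lower. RET, the receptor for GDNF-family ligands, had 4.67, 6.17 and 4.71 CPM in clone B and 0.438, 0.652 and 0.447 CPM in clone A (3.33 ± 0.31, adjusted p = 0.000403), with 4.98 ± 0.680 CPM in parental cells. DDR2, a collagen receptor, averaged 27.05 ± 6.19 CPM in clone B and 8.58 ± 2.08 CPM in clone A (1.66 ± 0.26), and KDR, a VEGF receptor, rose by 3.44 ± 0.67 at under 1 CPM. These calls held in all 16 alternatives. EPHB2 averaged 396 ± 59.0 CPM in clone B and 796 ± 168 CPM in clone A (−1.01 ± 0.20), a call lost without clone A replicate 2.

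Interferon-stimulated genes rose in 4 of 14 and fell in 0 (median 0.41; 12.9% of all genes rose), in 7 after the offset, and in 7 with 3 lower under the block. Without clone A replicate 2 none was called, and without single clone B libraries 2 or 3 rose. OAS1, which senses double-stranded RNA, averaged 1.38 ± 0.327 CPM in clone B and 0.333 ± 0.148 CPM in clone A (2.03 ± 0.44, adjusted p = 0.0121). OASL averaged 3.25 ± 1.28 CPM in clone B and 0.838 ± 0.144 CPM in clone A (1.96 ± 0.38). USP18 rose by 1.30 ± 0.40. MHC class I presentation had 2 of 15 higher and 1 lower (5 and 1 after the offset, 3 and 4 with the block, 1 and 0 without clone A replicate 2). The share higher lay near the 12.9% of all genes. ERAP2, a peptide-trimming protease, had 5.21, 5.46 and 4.74 CPM in clone B and 0.977, 0.448 and 0.447 CPM in clone A (3.00 ± 0.36, adjusted p = 0.00124, held in all 16 alternatives), where parental cells had 31.3 ± 3.28 CPM. ERAP1 (0.69 ± 0.17) lost its call after the offset.

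Cytokine and NF-kB genes rose in 3 of 15 and fell in 1, against 12.9% and 17.8% of all genes (5 and 1 after the offset, 7 and 2 with the block, 0 and 0 without clone A replicate 2, 1 and 1 without clone B replicate 3). The adhesion molecule ICAM1 averaged 83.6 ± 8.57 CPM in clone B and 41.4 ± 7.60 CPM in clone A (1.02 ± 0.20), with 23.6% of its exons shared, and the IL6-family cytokine LIF 50.5 ± 14.5 CPM in clone B and 126 ± 19.7 CPM in clone A (−1.32 ± 0.25). CCL2, a monocyte chemokine, had 2.40, 8.91 and 35.4 CPM in clone B and 0.404, 0.326 and 2.48 CPM in clone A (3.92 ± 1.03, adjusted p = 0.0211). One clone B library overlapped clone A, the call was lost in 6 alternatives, and parental cells had 148 ± 65.8 CPM. CXCL8 (3.07 ± 0.76) lost its call after the offset. AP-1 and early response genes fell in 5 of 16 and rose in 0, where 17.8% of all genes fell (3 after the offset, 7 with the block, 2 without clone A replicate 2). This list went the other way elsewhere. In hypoxic regular medium 8 of 16 rose and 1 fell, and in normoxia 8 rose and 4 fell (16.7% and 24.4% of all genes rose). MYC averaged 270 ± 38.2 CPM in clone B and 667 ± 126 CPM in clone A (−1.30 ± 0.19, adjusted p = 0.00344, held in all 16 alternatives). JUND fell by 1.23 ± 0.22, and FOSL1 (−1.30 ± 0.33) lost its call after the offset.

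Stress pathways were mixed. Of 15 tested p53 targets 4 rose and 3 fell (4 and 2 after the offset, 6 and 4 with the block, 1 and 1 without clone A replicate 2, 1 and 2 without any clone B library in turn). The share that fell lay near the 17.8% of all genes, and 12.9% of all genes rose. PLK2, a kinase induced by p53, had 46.4, 39.7 and 35.4 CPM in clone B and 5.90, 4.64 and 7.75 CPM in clone A (2.73 ± 0.25, adjusted p = 0.000317), and AEN, a nuclease of apoptosis, 101, 109 and 109 CPM in clone B and 265, 404 and 441 CPM in clone A (−1.80 ± 0.21). Both calls held in all 16 alternatives, while those of the death receptor FAS (1.41 ± 0.41) and of BAX (−1.21 ± 0.23) were lost without clone A replicate 2. Panc1 carries mutant p53. The unfolded protein response, near the shares of all genes, had 2 of 20 higher and 3 lower (2 and 3 after the offset, 7 and 6 with the block, 0 and 0 without clone A replicate 2, 0 and 2 without any clone B library in turn). XBP1, its transcription factor, averaged 138 ± 8.81 CPM in clone B and 257 ± 46.6 CPM in clone A (−0.90 ± 0.18), SDF2L1 fell by 1.24 ± 0.26, and DNAJC3 rose by 0.87 ± 0.26 and SEL1L by 0.73 ± 0.24. NRF2 targets fell in 3 of 18, near the 17.8% of all genes, and rose in 1 (5 and 1 after the offset, 6 and 2 with the block, 1 and 0 without clone A replicate 2, 2 and 0 or 1 without a clone B library). Besides HMOX1 these were the ferritin light chain FTL (−1.08 ± 0.22), PGD (−0.69 ± 0.20), which lost its call after the offset, and ABCC3 (0.80 ± 0.21). NQO1 did not pass (−0.51 ± 0.22, adjusted p = 0.108).

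The metallothioneins MT2A (−0.65 ± 0.19) and MT1E (−0.75 ± 0.25) were the 2 of 7 zinc response genes that fell, and neither was called after the offset or without clone A replicate 2. MT2A had 164, 152 and 163 CPM in clone B and 186, 282 and 284 CPM in clone A. These genes have near copies and their counts are uncertain. In hypoxic regular medium and in normoxia 5 of 7 zinc response genes rose and 0 fell, where 16.7% of all genes rose in hypoxic regular medium and 24.4% in normoxia. Autophagy and lysosome genes rose in 1 of 17 and fell in 2, against 12.9% and 17.8% of all genes (4 and 0 after the offset, 2 and 4 with the block, 0 and 0 without clone A replicate 2 or clone B replicates 2 or 3). The lysosomal protease CTSB averaged 805 ± 99.3 CPM in clone B and 411 ± 115 CPM in clone A (0.97 ± 0.22). SQSTM1 (−0.70 ± 0.21) and ULK1 (−0.71 ± 0.19) lost their calls after the offset.

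The difference between the clones in TIFM was set against that in hypoxic regular medium. In one model of 12 libraries, the difference of clone B from clone A in TIFM minus that in hypoxic regular medium was called for 3305 of 13497 genes (24.5%), 1403 higher (10.4%) and 1902 lower (14.1%). With clone A replicate 2 in TIFM left out the count was 1715, and with its replicate 1 left out 6135. After the GC and length offset 2794 genes were called, with 58.6% of the first calls among them. The trend was seen in TIFM and not in regular medium, and its part in the interaction was not otherwise tested. HMOX1 changed direction, at −2.29 in TIFM and 1.22 in regular medium (interaction −3.51 ± 0.38, adjusted p = 0.000373). DHRS2, a short-chain dehydrogenase, did the same, at 5.90 ± 0.265 CPM in clone B and 16.2 ± 1.80 CPM in clone A in TIFM (−1.46 ± 0.21), and at 2.31 in regular medium (interaction −3.76 ± 0.38). PDE5A, the cGMP phosphodiesterase, had 171, 290 and 484 CPM in clone B and 55.4, 36.1 and 84.6 CPM in clone A in TIFM (2.42 ± 0.41), and differed by −0.86 in regular medium (interaction 3.28 ± 0.47, adjusted p = 0.0014). These 3 interactions held in every alternative run.

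TRIM2, a ubiquitin ligase, differed by 2.38 ± 0.30 in TIFM, while its −0.54 in regular medium did not pass (interaction 2.92 ± 0.46). MAP2K6, a kinase that activates p38, had 245 counts in the 3 clone B libraries and 3 in the 3 clone A libraries in TIFM, a ratio of 69.5 after scaling for depth, with a 95% counting interval from 23.5 to 339.5 (counting error only; interaction 4.07 ± 0.92). SEMA3D, a secreted guidance cue, did not pass in TIFM (0.59 ± 0.51) and was lower in clone B in regular medium (−2.85), which made its interaction 3.44 ± 0.54. COX20 had an interaction of 3.13 ± 0.43, but 72.0% of its exons are shared with HNRNPU. The secreted protease ASTL averaged 2.17 ± 0.722 CPM in clone B and 5.08 ± 1.67 CPM in clone A in TIFM (−1.22 ± 0.36) and had 0 counts in clone A in regular medium, so no fold is given there. The interactions of ALB, AFP and APOB, also among the largest, are of the liver genes described above. APOB had 3 counts in clone B and 562 in clone A. All 3 calls were lost without replicate 3 of clone B in regular medium, the single library of that group with liver transcripts (546 summed counts, against 42 and 35 in the others).

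**Figure D4:**
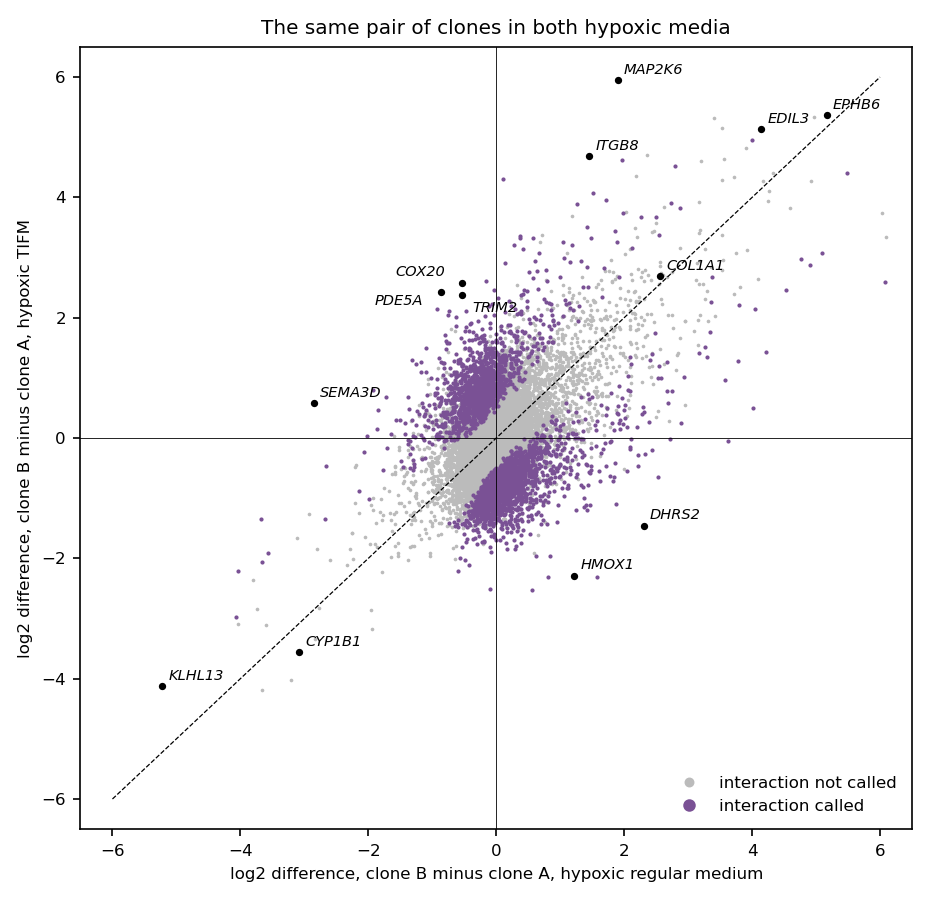
Log2 difference of clone B minus clone A per gene in hypoxic TIFM (vertical axis) against hypoxic regular medium (horizontal axis), with genes of called interaction in purple and the diagonal dashed. EDIL3 and EPHB6 stand high in both media, while HMOX1 is at −2.29 in TIFM and 1.22 in regular medium.

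Many differences were shared with the other conditions, which used separate libraries of the same clones. Of 1621 genes higher in clone B in TIFM and tested in both media, 720 (44.4%) were also higher in hypoxic regular medium and 154 (9.5%) were lower there. Those 720 were 35.1% of the genes higher in regular medium, and 16.7% of all genes were higher there. Of 2214 genes lower in TIFM, 587 (26.5%) were also lower in hypoxic regular medium, which is 27.8% of that list, against 17.2% of all genes that were lower there, and 153 (6.91%) were higher. With normoxia 960 higher genes (59.4% of the TIFM list and 32.3% of the normoxia list) and 1189 lower genes (53.5% and 30.8%) were shared, where 24.3% of all genes were higher and 31.6% lower in normoxia. In all 3 conditions 683 genes were higher and 544 lower. Hypoxic regular medium alone gave 4317 of 12984 genes (33.2%) and normoxia 7031 of 12793 (55%).

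Among the nuclear chromosomes, X held the highest median once the offset was applied. Of 429 tested X-linked genes 121 were higher (28.2%) and 66 lower (15.4%), and the median log2 difference was 0.31, 0.30 after the offset, 0.29 in hypoxic regular medium and 0.24 in normoxia. Chromosomes 19, 22, 16 and 17 had medians of −0.48, −0.45, −0.37 and −0.29, which after the offset were −0.09, −0.12, −0.12 and −0.08. Chromosome 4 had 0.34, and 0.09 after it. Within the X chromosome the window from 10 to 20 Mb held 37 tested genes, of which 32 were higher and 0 lower (median 1.27). That median was 1.04 after the offset, 0.84 in hypoxic regular medium and 0.86 in normoxia. The window from 100 to 110 Mb had a median of 0.67 over 50 genes (0.60 after the offset). Of 237 windows with at least 20 tested genes, these were the 2 with a median above 0.5 after the offset, and 0 lay below −0.5.

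Neighboring genes called in the same direction formed 7 runs of at least 8. The longest held 16 genes, all higher in clone B, from 17375420 to 22251310 on the X chromosome, from NHS to PHEX, and included PDHA1, a subunit of pyruvate dehydrogenase, EIF1AX and SMS (median 1.37). The same genes had medians of 0.82 in hypoxic regular medium and 0.91 in normoxia. Another held 13 genes from 11758159 to 15335580 (MSL3 to PIGA, median 1.37) and a shorter one 8 genes from 23983720 to 30975084 (KLHL15 to TAB3, median 1.54). On chromosome 7 a run of 11 genes from 5274369 to 6161564, among them ACTB and FSCN1, was lower in clone B, with medians of −0.84 in TIFM, −0.68 in hypoxic regular medium and −0.61 in normoxia. The other 3 runs, on chromosomes 1, 9 and 11, were lower in TIFM (medians −1.28, −0.89 and −0.86) and smaller in hypoxic regular medium (−0.34, −0.28 and −0.05). The 10 Mb windows that hold these 3 had TIFM medians of −0.39, −0.26 and −0.53, and −0.06, −0.11 and −0.08 after the offset. The window of the chromosome 7 run had −0.51, and −0.25 after it. Medians of the runs themselves are without the offset. Gene copy number was not measured in these libraries.

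**Figure D5:**
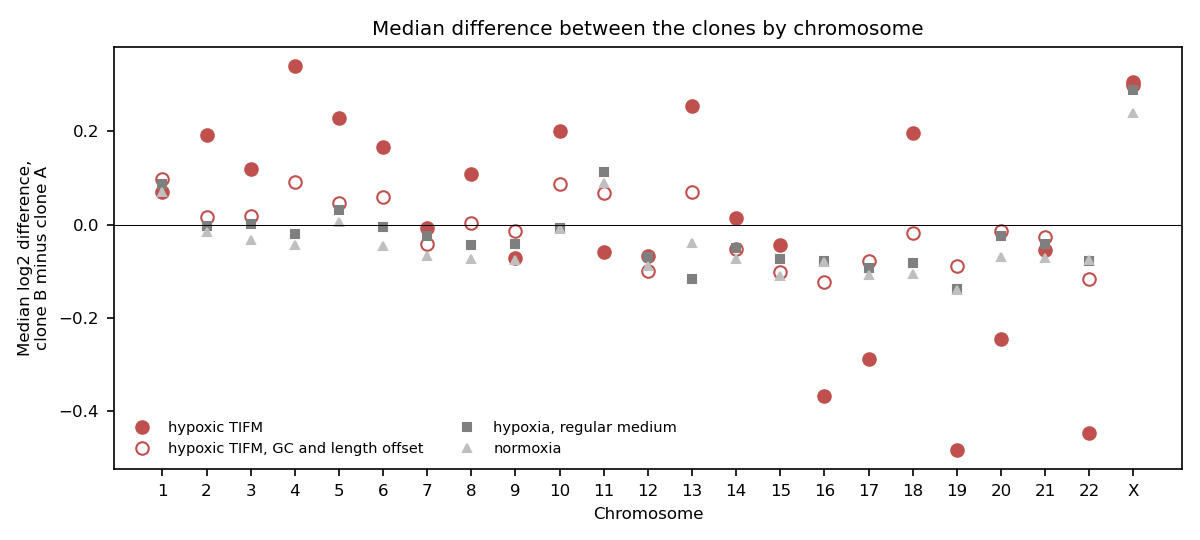
Median log2 difference of clone B minus clone A per chromosome in TIFM, with and without the GC and length offset, and in hypoxic regular medium and normoxia. The X chromosome stays near 0.3 in TIFM with and without the offset, whereas chromosomes 16, 17, 19 and 22 move from below −0.28 to −0.12 or nearer 0 once it is applied.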

How the data were processed

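The table the authors deposited gives, for each gene and library, an unnormalized read count. HISAT2, featureCounts and GRCh38 are named in the submitters' processing notes. Their versions, the strand setting and the annotation are not given in the sources used. Every value was whole. Symbols matched 21432 of 21487 Ensembl IDs, and exon overlap came from GENCODE 29. Genes passed filterByExpr (minimum count 10, minimum total 15). TMM factors came from all 27 libraries, and edgeR 4.0.16 in R 4.3.3 fitted the 6 compared libraries (12 for the interaction) with quasi-likelihood F tests, with calls at p under 0.05 after Benjamini-Hochberg adjustment. Fold changes are log2 of clone B over clone A with the standard error. The biological coefficient of variation was 23.6%.

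In the comparison of clones in TIFM, deviations of same-numbered libraries from their group means correlated at 0.458, 0.133 and 0.575, so the replicate block is reported. Over the 13988 genes of a filter on all 27 libraries they were 0.372, 0.0666 and 0.449. No label states what the numbers share.

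Named genes were the 15 largest rises and falls, up to 4 called members per list, 6 interactions per direction by size, pathway components, and 1 member per list that did not pass. Others are marked as outside the rule or complete a small count. Members and the 33 lists were chosen with earlier results of these data known. Tested on simulated data for the TIFM comparison (12500 genes), the fit recovered 96.9% of genes changed by a log2 of 2 and 50% of those changed by 1, and called 0.0488% of unchanged genes. The simulated counts had a single spread for all genes and both clones, and no GC or length trend. In the real libraries the coefficient of variation was 27.9% in clone A and 16.5% in clone B, so these rates may not hold there. The 16 alternatives used DESeq2 1.42.0, other size factors, no filter, more libraries, limma 3.58.1 (voom weights), the block, the GC and length offset, both together, and each library left out. Counts carry no molecular identifiers, so intervals cover counting error only. Results for a few genes are not reported here.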

Additional observations from a re-analysis of the deposited data

Results flagged for a closer look

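Several genes named above differed between clone B and clone A by different amounts in TIFM and in hypoxic regular medium, by the interaction term of edgeR's quasi-likelihood test at an adjusted p under 0.05. Among genes higher in clone B in TIFM, the difference was larger in TIFM for EDIL3 (interaction 0.99), SCUBE3 (0.95), ITGB8 (3.24) and PLA2R1 (2.64), and smaller for TRBC2 (−1.08). Among genes lower in clone B in TIFM, SLC6A15 was less far apart there (1.09), and ADM5 (−1.61), AOX1 (−1.55) and ZNF185 (−1.43) were further apart. HMOX1 (−3.51) changed direction, as given above. The ANGPTL4 interaction (−3.13) was larger in size than its difference in TIFM (−2.31), so clone B was not lower in regular medium. The largest interactions by size included SEMA3D (3.44), PDE5A (3.28), COX20 (3.13), TRIM2 (2.92), DHRS2 (−3.76) and ALB (−10.02). The ITGB8 interaction was lost in 7 alternatives, among them the GC and length offset and the omission of clone A replicate 2 or 3 in TIFM.

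Liver transcripts appeared in parental libraries in TIFM, which are given as levels beside the clones and enter the TMM factors and the fits of 9 and 27 libraries, with at least 324 summed counts over 12 genes in each. Parental libraries in hypoxic regular medium had 143, 134 and 109 such counts, and in normoxia no library of any line had more than 48. The part of these transcripts in the results was not tested.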

How the results depend on the processing

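The count of 3879 genes in TIFM was 7799 in a fit of all 27 libraries, 8251 with voom quality weights, 6738 with the replicate block and 6036 with the block and the GC and length offset together, the offset being chosen after seeing the data. The cause of these changes was not tested. With 1 library left out it ranged from 552 to 6448. DESeq2 gave 4655 and the offset alone 3808, which kept 65.8% of the calls. The share of calls that were higher was 42.0%, and it was 61.1% without clone A replicate 2, 51.8% and 51.4% without clone B replicates 1 and 2, and 50.2% with the block. The interaction count of 3305 was 5561 with all 27 libraries, 7818 with voom weights, and 1715 to 6135 with a library left out. The normoxia count of 7031 was 2981 with all 27 libraries. The replicate block, alone, kept 100% of the TIFM calls, and changed the interaction count to 3789.

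Of 140 named genes called in TIFM, 66 kept call and sign in every alternative and 0 changed sign. The other 74 lost the call without clone A replicate 2, and 15 lost it under the offset. A held call did not mean an unchanged size. Under the offset MYC differed by −0.86 (−1.30 before it) and PLK1 by −0.81 (−1.25), while EPHB6 differed by 5.81 (5.37). Components that were not called, such as AHR (0.57, and −0.06 under the offset), did cross 0, and HIF targets (under the offset) and collagens (under the block) turned to more falls than rises. Small differences were hard to call at this spread.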
